A study of Mus musculus with 12 samples.

Results

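The sodium, calcium, chloride and TRP channel genes of purified mouse brain myelin are described here as a set of 72 genes among the 21937 in the deposited table. The set was taken by gene symbol. It holds the sodium channel alpha and beta subunits (Scn), the voltage-gated calcium channel pores and their auxiliary subunits (Cacna1, Cacna2d, Cacnb, Cacng), the CLC chloride channels and exchangers (Clcn), the hyperpolarization-activated channels (Hcn), the transient receptor potential channels of the Trpc, Trpm and Trpv groups, the ryanodine receptors Ryr1 to Ryr3 and the inositol trisphosphate receptors Itpr1 to Itpr3. Trpc4ap, which matched by its symbol, encodes a protein that associates with TRPC4 and is not a channel, so it was kept apart from the families. Myelin was purified as a light membrane fraction from brains of wild-type male c57Bl6/N mice at P18, P75, 6 months and 24 months of age, where P stands for postnatal day. There were 3 libraries per age and 12 in all, with different mice at each age, so age was compared between animals and not followed within them. The libraries carry consecutive numbers within an age in the table's column names, and the numbers of the 6- and 24-month libraries follow each other. What these numbers mark is not given in the sources used here.

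Voltage-gated sodium channels drive the action potential and consist of a pore-forming alpha subunit with smaller beta subunits, which also act as cell adhesion molecules. Calcium channels combine a Cacna1 pore with an alpha2delta and a beta subunit, while most gamma (Cacng) proteins are better known as regulators of AMPA-type glutamate receptors. Ryanodine and inositol trisphosphate receptors release calcium from the endoplasmic reticulum. CLC proteins carry chloride across the cell surface (Clcn1, Clcn2) or exchange it for protons in endosomes and lysosomes (Clcn3 to Clcn7), HCN channels carry a depolarizing cation current at negative potentials, and TRP channels are mostly calcium-permeable cation channels. In white matter, loss of Clcn2 is known to cause vacuolation of myelin, and loss of Clcn7 or its partner Ostm1 causes lysosomal storage.

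Values are normalized read counts, that is, reads on a gene divided by the size factor of the library. A gene was tested where its mean over the 12 libraries was at least 10, and called where the adjusted p of limma on log2(normalized read count + 1) was below 0.1 over all 14634 genes tested. Of the 72 members, 60 passed this filter. The other 12 were Cacna1f, Cacng1, Cacng6, Scn10a, Scn11a, Scn4a, Trpm1, Trpm5, Trpm8, Trpv1, Trpv3 and Trpv5. The member just below it was Scn10a, with a mean of 7.98, and the member just above it was Hcn4, with a mean of 16.6. Trpv5 had 0 of 280790286 reads in all libraries, where the 3 reads that a count of 0 allows would be a normalized read count of 2.44 to 3.56. These floors cover counting error only. The number of members with a mean above 100 was 45 at both P18 and P75, 48 at 6 months and 50 in the oldest mice. It was reached at all 4 ages by 44 of 72 members (61.1%), against 10668 of 21937 genes in the table (48.6%).

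Most members that changed rose up to 6 months. From P18 to P75, 31 members rose (51.7% of those tested, against 25.9% of all genes tested) and 7 fell (11.7%, against 22.9% of all genes). From P75 to 6 months, 34 rose (56.7%, against 31.2%) and 5 fell (8.33%, against 29.4%). From 6 to 24 months, 14 rose (23.3%, against 16.6%) and 11 fell (18.3%, against 12.7%), shares that are closer to those of all genes. The median log2 change of the members was 0.38, 0.40 and 0.06 in these 3 comparisons, and that of all genes tested was 0.02, 0.01 and 0.03. With each library scaled to the same total in place of the deposited size factors, the median of all genes moved to 0.14 from P18 to P75, and 34 members rose and 5 fell there. With that scaling, 7 members rose and 11 fell from 6 to 24 months, so that more fell than rose. The shares of all genes called with it are not given here. The median log2 change from 6 to 24 months was then 0.02 for members and -0.01 for all genes, so both medians were lower than with the deposited size factors. The shares of all genes given above are a background and not a test, and nothing particular to channel genes can be read from them.

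Changes of more than 2-fold were fewer. From P18 to P75, Trpc6, Itpr1 and Scn7a rose by more than 2-fold, 3 members in all (5%, against 2.82% of all genes), and 0 members fell so far in limma, by an unadjusted p under 0.05, in edgeR or in DESeq2 (1.73% of all genes did). From P75 to 6 months, 11 members rose by more than 2-fold (18.3%, against 5.3%). None fell so far in limma, by an unadjusted p under 0.05, in edgeR or in DESeq2, while 4% of all genes did. From 6 to 24 months, Hcn4 fell by more than 2-fold (1.67%, against 0.465%). None rose so far in limma or by an unadjusted p under 0.05, 1 member did in edgeR and 1 in DESeq2, and 1.22% of all genes did. The plot of all changes by family shows the rises of the middle comparison spread over nearly every family, and the Scn alpha and Ryr groups without a called rise.

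**Figure D1:**
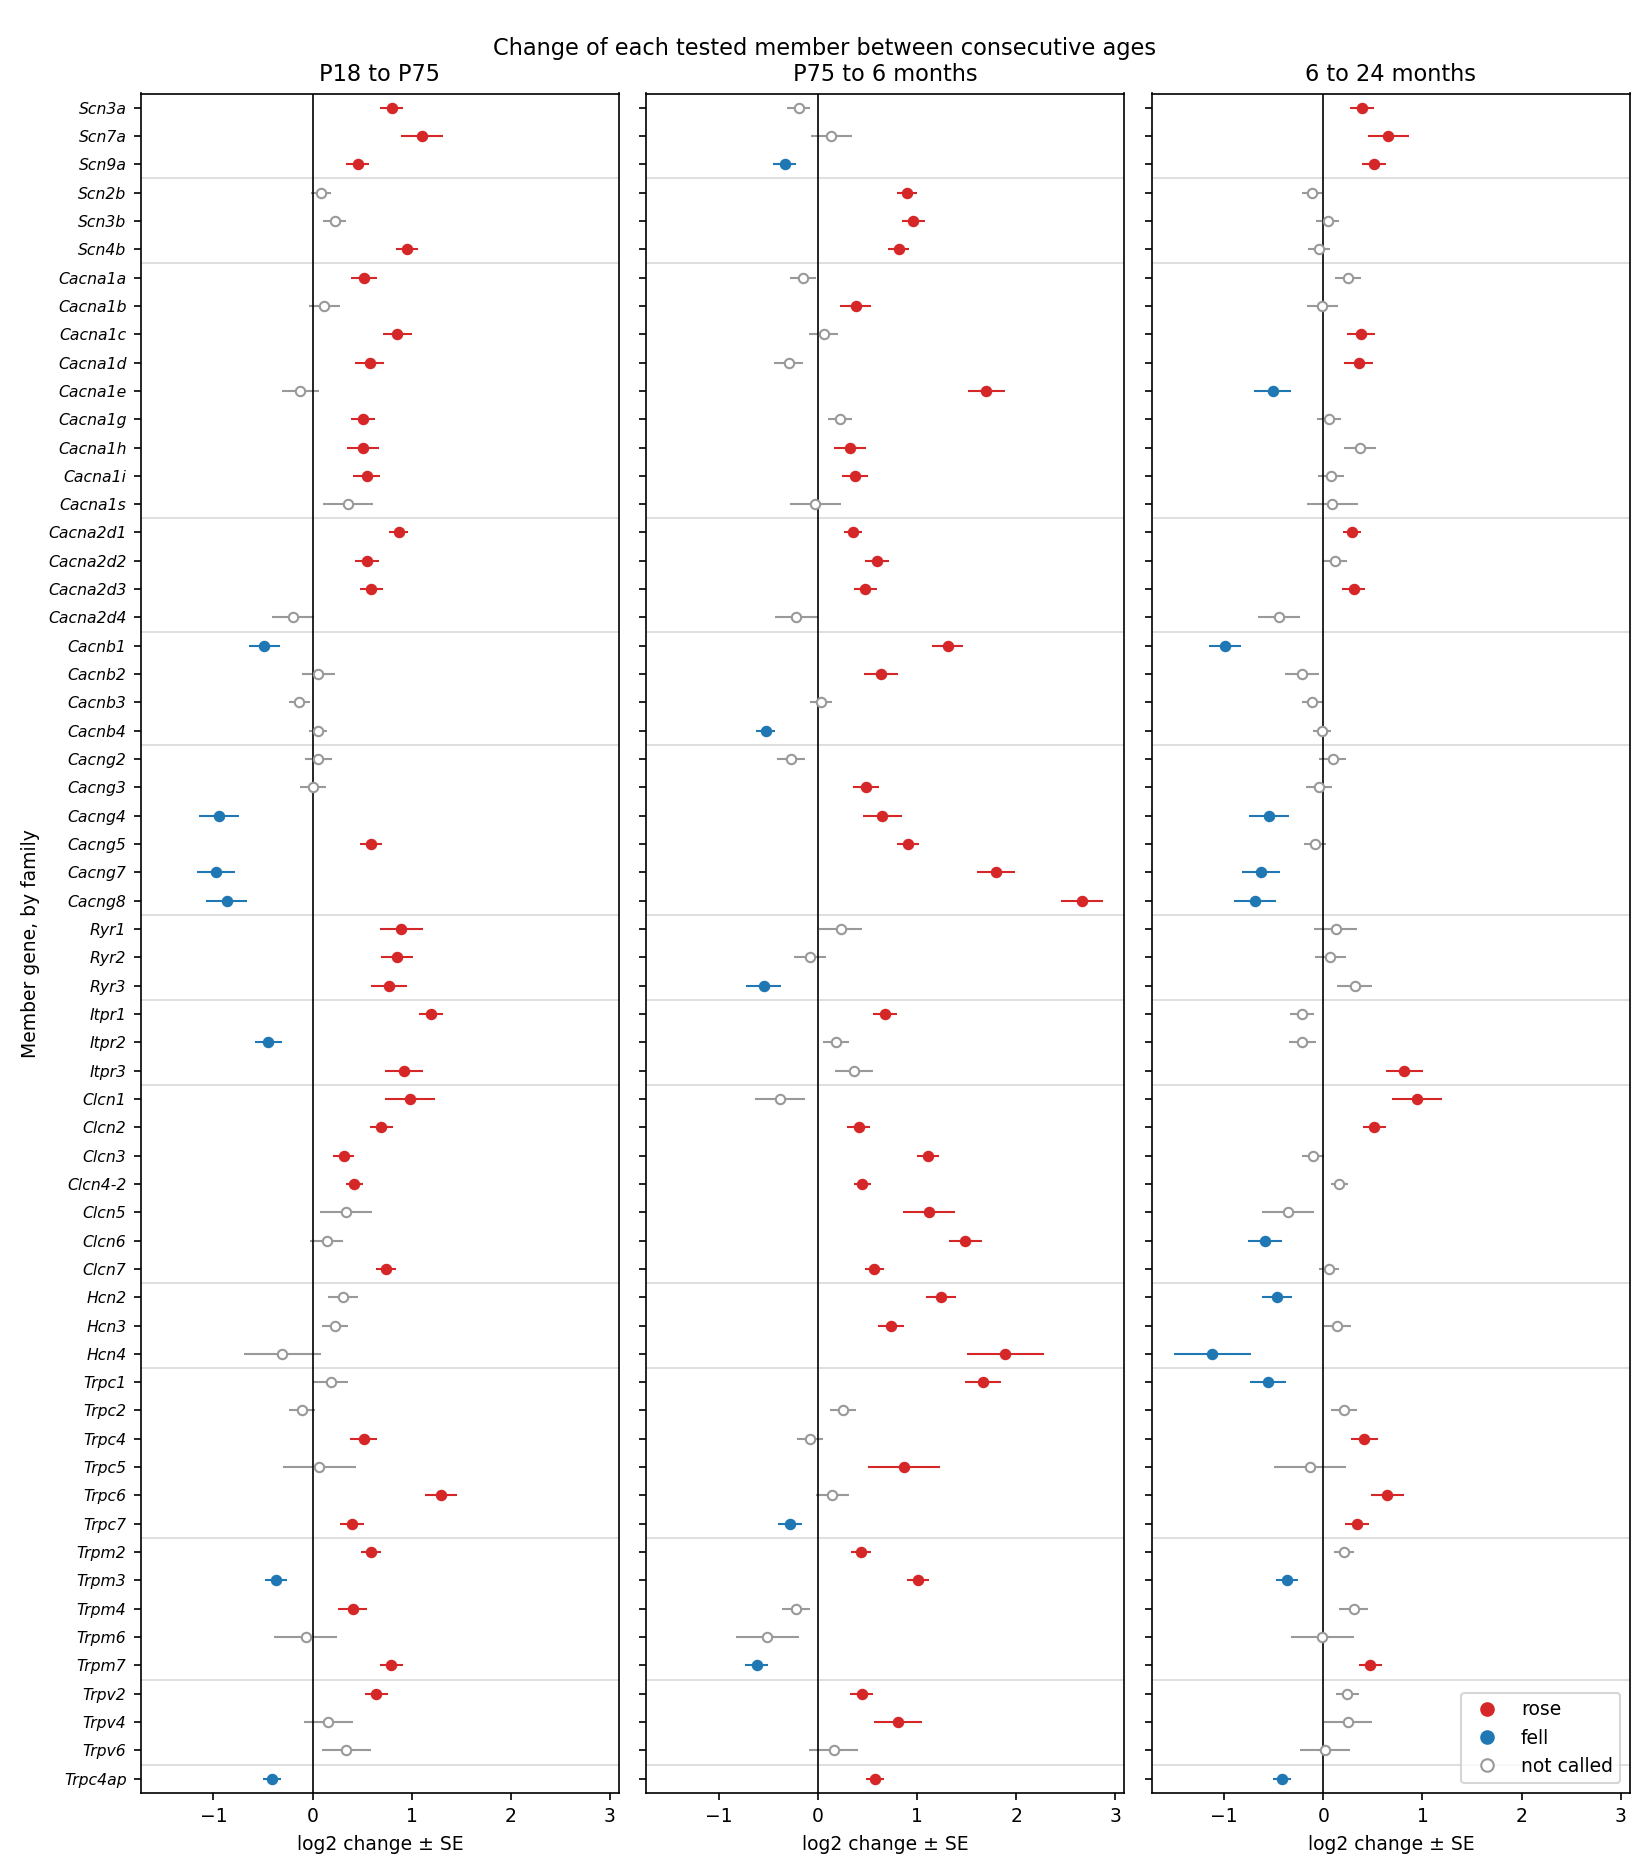
The log2 change of each of the 60 tested members between consecutive ages (horizontal axis, with its standard error as a bar), in 3 panels and ordered by family. Filled points passed an adjusted p of 0.1 in limma, in red where the gene rose (31, 34 and 14 members) and in blue where it fell (7, 5 and 11), and open points did not pass.

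Some libraries stood to one side of the other 2 of their age for most members. At P18, replicate 3 held the highest of the 3 values for 39 of 60 members (65%, against 44% of all genes tested), with a median of 0.26 above the other 2 libraries on the log2 scale. At 6 months, replicate 1 was the highest for 45 members (75%, against 36.7%), and at 24 months replicate 1 was the lowest for 42 (70%, against 44.2%). Without P18 replicate 3, 32 members rose and 8 fell from P18 to P75. In the comparison of 6 and 24 months the counts moved more. The number of members that rose was 7 without 6-month replicate 2, 6 without 24-month replicate 2 and 9 without 24-month replicate 3, and the number that fell was 4 without 6-month replicate 1 and 5 without 24-month replicate 1. Since the libraries are of bulk RNA, a change in the share of a source of RNA in the fraction and a change of the RNA within it cannot be told apart.

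Markers of other cells were present in every library and moved with age. No gene of the 7 marker lists was at 0 in all 3 libraries of an age. The summed level of 6 genes of mature oligodendrocytes lay between 2450083 and 6155489 at P18 and between 1259596 and 1835027 at P75, and all 6 fell in that comparison. The sum of 7 neuronal markers was between 133345 and 164740 in the P18 libraries, 172211 and 195852 in those of P75, 163891 and 168898 at 6 months and 157057 and 164069 at 24 months. From P75 to 6 months, 5 of these 7 neuronal markers rose and 1 fell, so the sum and the count of called markers moved in opposite directions. The sum of 6 microglia markers was between 2204 and 2989 at P18, 2820 and 3251 at P75, 3811 and 4510 at 6 months and 4324 and 4805 at 24 months, and 3, 4 and 1 of the 6 rose in the 3 comparisons, while 1 fell from P75 to 6 months. That of 3 markers of oligodendrocyte precursors was between 2151 and 2379 at P18, 1063 and 1157 at P75, 1317 and 1597 at 6 months and 1041 and 1216 at 24 months. Of these 3, 1 fell from P18 to P75, 2 rose from P75 to 6 months and 1 fell afterwards. The sums of 6 astrocyte markers lay between 89827 and 109101 and those of 3 endothelial markers between 206 and 283 over all libraries. Single genes of these lists were called nonetheless. Of the astrocyte markers, 2 fell from P18 to P75, 2 rose and 1 fell from P75 to 6 months, and 1 rose afterwards. Of the endothelial markers, 2 rose from P75 to 6 months, 1 of them by more than 2-fold, and 0 were called in the other comparisons. The part of these shifts in the changes of the channel genes was not tested.

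The sodium channel beta subunit genes Scn2b, Scn3b and Scn4b rose together from P75 to 6 months, when 31.2% of all genes tested rose. Scn2b, the beta2 subunit, had the highest level of these 3 per kb of exon, at 685 normalized reads per kb over the 12 libraries. Its values were 1977, 2259.8 and 2149 at P18, 2274, 2398 and 2100.4 at P75, 4637, 4029 and 3956 at 6 months and 3339, 4004 and 4362 at 24 months, so that the 6 older libraries were all above the 6 younger ones. It rose from P75 to 6 months by 1.86-fold (log2 change 0.90, SE 0.10, limma adjusted p = 3.96e-06), and its log2 change from P18 to P75 was 0.08, which was not called.

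Scn3b, the beta3 subunit (chromosome 9, 40076801 to 40099203, plus strand), gave 796, 820.3 and 1071 at P18, 1060.2, 983 and 1065 at P75, 2257, 1803 and 2015 at 6 months and 1851, 2158 and 2252 at 24 months. Its change from P75 to 6 months was 0.96, SE 0.12, limma adjusted p = 6.09e-06. Scn4b, the beta4 subunit, differed in that it was called in the first comparison as well. Its values were 995, 1295 and 1067 at P18, 2186, 2308 and 1975 at P75, 4277, 3471 and 3651 at 6 months and 3460.4, 3592 and 3978 at 24 months, with no overlap between P18, P75 and the later ages, and it rose by 0.95 (SE 0.11, limma adjusted p = 7.37e-06) and then by 0.81 (SE 0.11, limma adjusted p = 1.47e-05) on the log2 scale. The share of Scn4b in the summed per-kb level of these 3 genes went from 25.5% ± 2.32 at P18 to 37.7% ± 1.05 at P75 (SD, n = 3, exact permutation test, two-sided p = 0.1, the smallest that 3 against 3 libraries allow). None of the 3 was called from 6 to 24 months, where the log2 changes of Scn2b, Scn3b and Scn4b were -0.11, 0.04 and -0.04.

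**Figure D2:**
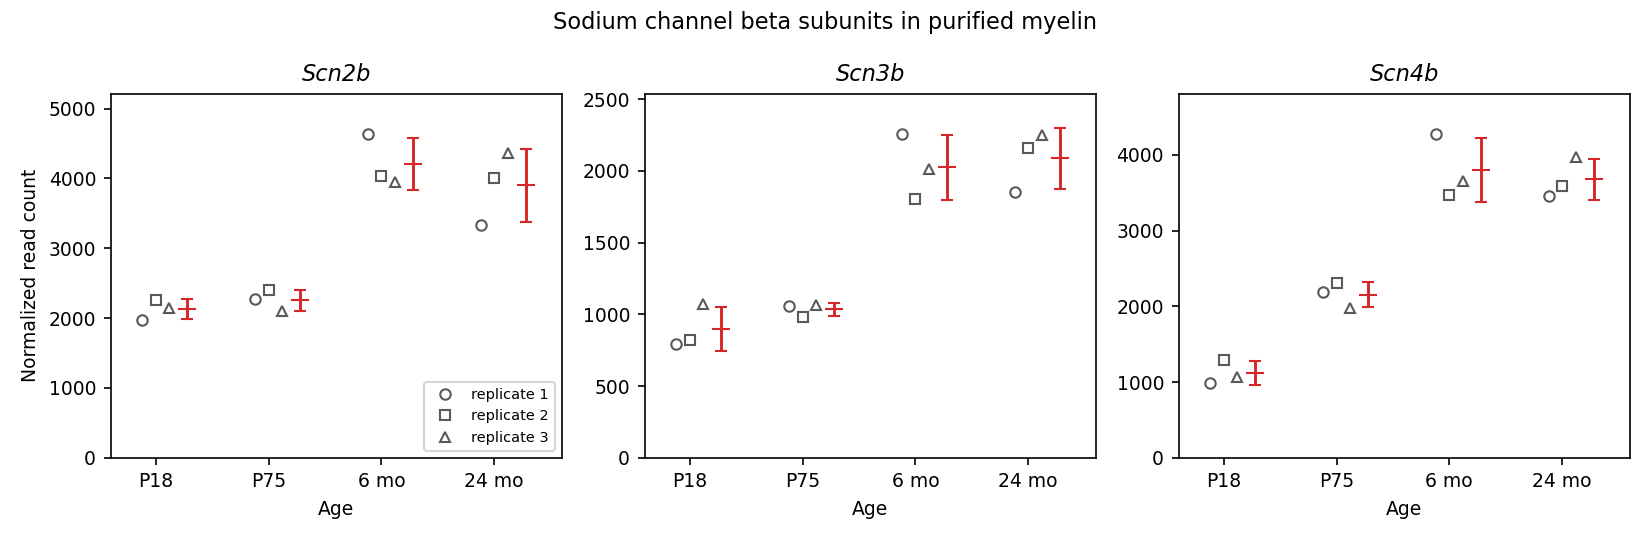
Normalized read counts of 3 sodium channel beta subunit genes (vertical axes, from 0) at 4 ages (horizontal axes), with 1 grey symbol per library and the mean ± SD of 3 libraries in red. In each gene the 6-month libraries lie above all P75 libraries, and for Scn4b the P75 libraries also lie above all P18 libraries.

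Scn2b (chromosome 9, 44925959 to 44938153, plus strand, mm9) and Scn4b (chromosome 9, 44946520 to 44962235, plus strand, mm9) are neighbours and are read in the same direction, and they differed in whether the first comparison was called. Their promoters are therefore printed, beside those of Cacng7 and Hcn2, which rose by more than 2-fold from P75 to 6 months and fell afterwards. Each stretch is the 250 bases before the RefSeq start of the gene in GRCm38.p6, which is not the build of the deposited counts, on the plus strand at chr9:45117626-45117875, chr9:45138374-45138623, chr7:3332575-3332824 and chr10:79716384-79716633. Capitals mark 3 motifs on either strand. A Sp1-type site was searched as GGGCGG. The classical promoter element near the start was searched as TATAAA. The site of the factor NF-Y was searched as CCAAT.
Scn2b: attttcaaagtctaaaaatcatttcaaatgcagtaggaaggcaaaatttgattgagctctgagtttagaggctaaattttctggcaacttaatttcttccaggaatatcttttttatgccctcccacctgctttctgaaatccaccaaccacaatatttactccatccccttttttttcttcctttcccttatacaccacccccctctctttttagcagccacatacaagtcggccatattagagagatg
Scn4b: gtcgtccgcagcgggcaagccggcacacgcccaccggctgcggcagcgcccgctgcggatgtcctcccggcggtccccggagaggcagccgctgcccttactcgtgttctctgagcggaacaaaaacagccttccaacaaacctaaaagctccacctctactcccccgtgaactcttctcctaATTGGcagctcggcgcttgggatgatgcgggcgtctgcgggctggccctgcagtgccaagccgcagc
Cacng7: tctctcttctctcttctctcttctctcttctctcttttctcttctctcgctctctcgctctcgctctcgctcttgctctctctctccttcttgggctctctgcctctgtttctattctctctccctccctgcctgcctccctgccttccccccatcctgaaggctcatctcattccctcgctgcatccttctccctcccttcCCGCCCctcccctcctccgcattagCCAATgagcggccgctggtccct
Hcn2: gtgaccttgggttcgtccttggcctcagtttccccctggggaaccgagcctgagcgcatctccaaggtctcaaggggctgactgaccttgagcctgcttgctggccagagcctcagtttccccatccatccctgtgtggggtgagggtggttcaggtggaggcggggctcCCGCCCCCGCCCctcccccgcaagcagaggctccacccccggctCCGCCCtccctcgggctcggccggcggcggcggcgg
The Scn2b window had 1 CpG and 38.4% GC and none of the 3 motifs, while the Scn4b window had 23 CpG, 66% GC and 1 match to the NF-Y motif. The Cacng7 window held 1 match to the Sp1-type motif and 1 to the NF-Y motif, and the Hcn2 window held 3 of the Sp1-type motif. RefSeq windows matched 59 members with 75 starts. Of these 75, 37.3% held the Sp1-type motif, 9.33% the promoter element near the start and 24% the NF-Y motif, against 32.7%, 12.4% and 33.8% of all 32851 windows of that length. These matches describe letters and not binding.

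The sodium channel alpha subunits followed another course than the beta subunits. Of 6 alpha subunit members, 3 were tested, and all 3 rose from P18 to P75, as did 25.9% of all genes tested. Scn3a, an alpha subunit known from the embryonic and early postnatal brain, led them per kb, at 73.7 normalized reads per kb. It gave 509, 549 and 736 at P18, 1052, 977 and 1058 at P75, 992, 845 and 869 at 6 months and 1099, 1249.9 and 1196 at 24 months, so that all later libraries were above the P18 libraries. The log2 change to P75 was 0.80, SE 0.12, limma adjusted p = 6.74e-05. Scn7a encodes Nax, a sodium-sensing channel of glia. Its values were 26.1, 36.2 and 35.2 at P18, 81.2, 51.9 and 82.9 at P75, 85.3, 60.4 and 90.5 at 6 months and 113, 138 and 118 at 24 months, and it rose by 2.15-fold from P18 to P75 (log2 change 1.11, SE 0.21, limma adjusted p = 0.000608). Scn9a, known from peripheral sensory neurons, gave 114, 107 and 119.5 at P18, 142, 158 and 169 at P75, 134, 121 and 116 at 6 months and 170.4, 188 and 171 at 24 months. It rose to P75 (0.45, SE 0.12, limma adjusted p = 0.00618), fell to 6 months (-0.34, SE 0.12, limma adjusted p = 0.0259) and rose to 24 months (0.51, SE 0.12, limma adjusted p = 0.0091), with no overlap between the libraries of consecutive ages.

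From P75 to 6 months, 0 of the 3 tested alpha genes rose in limma, by an unadjusted p under 0.05, in edgeR or in DESeq2, whereas all 3 beta genes did in limma. Of all genes tested, 31.2% rose there, and the difference between the families was not tested. From 6 to 24 months, Scn3a (0.39, SE 0.12, limma adjusted p = 0.0295) and Scn7a (0.66, SE 0.21, limma adjusted p = 0.0394) rose together with Scn9a. The call of Scn3a was lost with libraries scaled to the same total, and those of Scn3a and Scn7a were lost without 6-month replicate 2 or 24-month replicate 2. The 3 alpha genes below the filter were Scn10a, Scn11a and Scn4a, and their highest values in any library were 19.8, 9.76 and 2.01.

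Among the 10 calcium channel pore genes, 9 were tested, and 6 of these rose from P18 to P75, as did 25.9% of all genes tested. Cacna1a, the pore of P/Q-type channels at nerve terminals, had the highest level per kb, at 148. Its values were 1084, 1124 and 1721 at P18, 1896, 1899.8 and 1720.1 at P75, 1803, 1575 and 1588 at 6 months and 1892, 2067 and 1937 at 24 months. The P18 and P75 ranges touched through P18 replicate 3, and the rise was 0.52, SE 0.13, limma adjusted p = 0.00518. Cacna1c, an L-type pore, rose further, from 165, 210.2 and 270.2 to 399, 367 and 381 (log2 change 0.85, SE 0.14, limma adjusted p = 0.000222). The T-type genes Cacna1g, Cacna1h and Cacna1i rose by 0.51, 0.51 and 0.54 on the log2 scale, and the L-type gene Cacna1d by 0.58. The call of Cacna1h was lost without P18 replicate 1. Exons of Cacna1d and Cacna1h overlap those of another coding gene in the annotation, so their counts are uncertain to that extent.

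Cacna1e, the R-type pore, changed most in this family (chromosome 1, 156239649 to 156573049, minus strand, mm9). Its libraries read 235, 327 and 391 at P18, 349.7, 272 and 244 at P75, 1176, 739 and 921 at 6 months and 584, 612 and 771 at 24 months. The 6-month libraries were all above the P75 libraries, a rise of 3.25-fold (log2 change 1.70, SE 0.19, limma adjusted p = 3.08e-06). Its share of the summed per-kb level of the pore genes went from 3.77% ± 0.444 at P75 to 10.6% ± 1.45 at 6 months (SD, n = 3, exact permutation test, two-sided p = 0.1). It fell to 24 months by 0.51 (SE 0.19, limma adjusted p = 0.0667), with overlapping libraries, and that call was lost without 6-month replicate 1 or 3 or without 24-month replicate 1 or 2. Cacna1b, Cacna1h and Cacna1i also rose from P75 to 6 months, by 0.38, 0.32 and 0.37, and Cacna1c and Cacna1d rose from 6 to 24 months, by 0.38 and 0.36. These last 2 calls were lost without any 24-month replicate, without 6-month replicate 2 or 3 and with libraries scaled to the same total. That of Cacna1d was also lost without the filter on low values. The call of Cacna1b was lost without P75 replicate 3 or 6-month replicate 1 or 3, and that of Cacna1i without P75 replicate 3 or 6-month replicate 1. The limma adjusted p of Cacna1h in the middle comparison was 0.0995. This call was lost with 0.5 added to each count in place of 1, without the filter on low values and with the replicate number as a block. It was also lost with libraries scaled to the same total, in DESeq2, and without P75 replicate 2 or 3 or any 6-month replicate. Cacna1s, the skeletal muscle pore, stayed between 18.1 and 36.1 in all libraries and was called in no comparison, and Cacna1f, the retinal pore, had 39 reads in all libraries together.

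The alpha2delta genes, whose products bring the pores to the membrane, included 2 of the 3 members that were called as rising in every comparison (5% of members tested, against 2.28% of all genes). Cacna2d1 gave 1269, 1268 and 1509 at P18, 2438, 2359 and 2570.2 at P75, 3413, 2839 and 3182 at 6 months and 3555, 3927 and 4008 at 24 months. No consecutive ages overlapped, and the log2 changes were 0.87, SE 0.09, limma adjusted p = 4.64e-06, then 0.35, SE 0.09, limma adjusted p = 0.00466, then 0.29, SE 0.09, limma adjusted p = 0.0421. Cacna2d3 led the family per kb, at 361, with 620.3, 703 and 923 at P18, 1059, 1152 and 1128 at P75, 1645, 1512 and 1488 at 6 months and 1793, 1892 and 2068 at 24 months. It rose by 0.59, 0.48 and 0.31, with limma adjusted p of 0.000764, 0.00258 and 0.0705. The last of these calls was lost without any 6-month replicate or 24-month replicates 2 or 3, and that of Cacna2d1 was lost without 6-month replicate 2 or 24-month replicate 2 or 3. Both were lost with libraries scaled to the same total. Cacna2d2 rose in the first 2 comparisons, by 0.55 and 0.59, and Cacna2d4 was called in none.

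The cytoplasmic beta subunits of calcium channels did not move together. Cacnb3 had the highest level per kb, at 1129.5, ranged from 2976 to 4209.6 over all libraries, and was called in no comparison. Cacnb4, mutated in the lethargic mouse, gave 6104, 5237 and 5683 at P18, 5659.9, 5685 and 6323 at P75, 4353, 3777 and 4121 at 6 months and 4072, 4337 and 3755 at 24 months. All P75 values were above all 6-month values, and Cacnb4 fell with a log2 change of -0.53, SE 0.09, limma adjusted p = 0.000175. Cacnb1 moved the other way there. Its values were 258, 329 and 293 at P18, 263, 206 and 167 at P75, 564, 515 and 479 at 6 months and 226, 248 and 314 at 24 months, and it rose by 2.48-fold (1.31, SE 0.16, limma adjusted p = 5.54e-06) and then fell (-0.99, SE 0.16, limma adjusted p = 0.00115). A smaller fall of Cacnb1 from P18 to P75 (-0.49, SE 0.16, limma adjusted p = 0.0205), with overlapping libraries, was lost without P75 replicate 3. Cacnb2 rose from P75 to 6 months by 0.64.

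The gamma genes held the largest change of any member. Cacng8 (chromosome 7, 3394567 to 3415366, plus strand, mm9) encodes TARP gamma-8, an auxiliary subunit of AMPA receptors known from hippocampus. Its values were 44, 58.8 and 78.3 at P18, 40.1, 34.3 and 23.2 at P75, 212, 205 and 202 at 6 months and 118, 123 and 143 at 24 months. Every 6-month library was above every other library, and the rise from P75 was 6.33-fold (log2 change 2.66, SE 0.21, limma adjusted p = 1.43e-07). Cacng7 lies next to it (chromosome 7, 3333055 to 3367810, plus strand) and encodes gamma-7. It gave 746, 941 and 534 at P18, 518, 318 and 297 at P75, 1306, 1272 and 1243 at 6 months and 759.8, 814 and 905 at 24 months, again with the 6-month libraries on top, and rose by 3.47-fold (1.80, SE 0.19, limma adjusted p = 1.96e-06).

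Both genes had fallen from P18 to P75, Cacng7 by 1.97-fold (-0.98, SE 0.19, limma adjusted p = 0.00072) and Cacng8 by 1.82-fold (-0.87, SE 0.21, limma adjusted p = 0.00346). They fell again to 24 months, Cacng7 with -0.63, SE 0.19, limma adjusted p = 0.0311 and Cacng8 with -0.69, SE 0.21, limma adjusted p = 0.0307. For both, the 24-month libraries stayed above the P75 libraries. The fall of Cacng7 to 24 months was lost without 24-month replicate 1. Cacng6, the third gene of this neighbourhood (chromosome 7, 3425423 to 3435658, plus strand), was below the filter, with at most 6.5 in any library. Cacng4, an AMPA receptor regulator expressed in the oligodendrocyte lineage, gave 96.2, 132 and 88.4 at P18, 49.1, 67.7 and 46.4 at P75, 103, 79.9 and 74 at 6 months and 48.5, 63.8 and 62 at 24 months. It was called in the same directions, with log2 changes of -0.94, 0.65 and -0.55, as were 10% of members and 5.29% of all genes tested. The last call of Cacng4 was lost without 6-month replicate 1 or 2 or 24-month replicate 1. The summed precursor markers moved in these directions too, though only 1 of the 3 was called from P18 to P75 and 1 from 6 to 24 months. The part of precursor cells in the change of Cacng4 was not tested.

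Cacng5 did not share that course. It gave 213, 186 and 249 at P18, 338, 334 and 297 at P75, 631, 588 and 597 at 6 months and 522, 567 and 622 at 24 months and rose by 0.59 and 0.91, with limma adjusted p of 0.000601 and 7.33e-06. Cacng3 was the leading gamma gene per kb, at 796, with 845, 941 and 1306 at P18, 939, 1139 and 977 at P75, 1425, 1362 and 1466 at 6 months and 1248, 1398 and 1499.6 at 24 months, and rose from P75 to 6 months (0.48, SE 0.13, limma adjusted p = 0.00528). Cacng2, the stargazin gene, was called in no comparison in limma, though edgeR and DESeq2 called it as falling from P75 to 6 months. Its share of the family's per-kb level was 12.9% ± 1.42 at P75 and 5.7% ± 0.46 at 6 months, while that of Cacng8 went from 4.27% ± 0.928 to 14.6% ± 0.269 (exact permutation test, two-sided p = 0.1 for each). The annotated exons of Cacng8 cover only 663 bases, against 5510 for Cacng2. Levels per kb depend on this length, so the size of the Cacng8 share is uncertain.

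**Figure D3:**
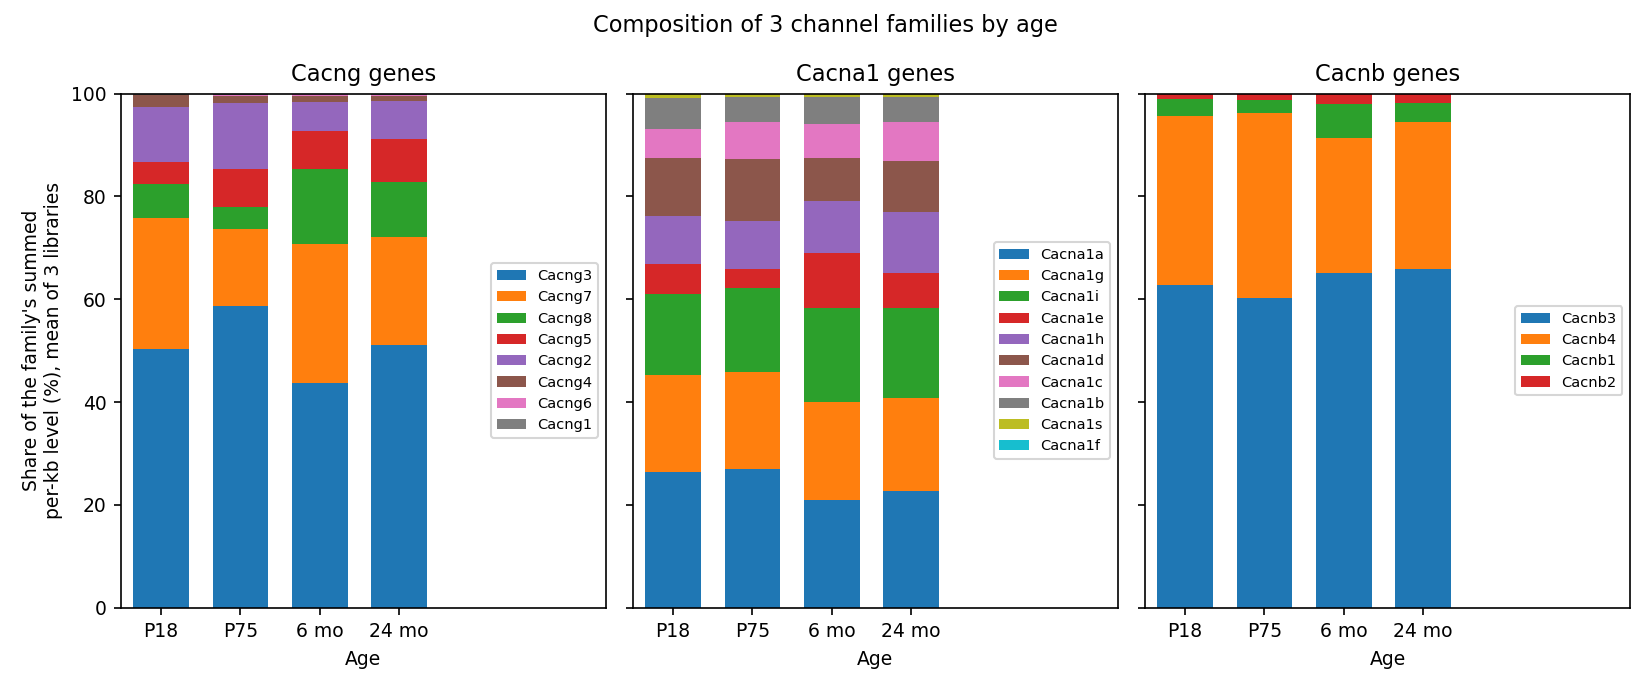
Share of each gene in the summed per-kb level of its family (vertical axis, percent, mean of 3 libraries) at 4 ages (horizontal axis), for the Cacng, Cacna1 and Cacnb genes. At 6 months the shares of Cacng8, Cacna1e and Cacnb1 are larger than at P75, and those of Cacng2, Cacna1a and Cacnb4 are smaller.

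Calcium release channels rose mainly between P18 and P75. Itpr1 (chromosome 6, 108163112 to 108501103, plus strand, mm9) encodes the inositol trisphosphate receptor that is abundant in Purkinje cells. It gave 3259, 3463 and 4381 at P18, 8659, 7661 and 9039.5 at P75, 15419, 11959 and 13272 at 6 months and 11149.8, 12421 and 11337 at 24 months. P18, P75 and 6 months did not overlap, and the gene rose by 2.3-fold (1.20, SE 0.12, limma adjusted p = 2.71e-06) and then by 1.6-fold (0.68, SE 0.12, limma adjusted p = 0.000226). Per kb it stood at 895 and made up 95.1% ± 0.434 of its family at P18 and 98.4% ± 0.208 at 6 months. The summed level of 4 markers of cerebellar Purkinje and granule neurons lay between 9595 and 11267 at P18 and between 10281 and 11403 at P75. It lay between 12927 and 14142 at 6 months and between 12627 and 13883 at 24 months. Of these 4 markers, 0 were called from P18 to P75, 3 rose from P75 to 6 months and 1 rose from 6 to 24 months. The part of these neurons in the change of Itpr1 was not tested.

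The other receptors of that family were scarce. Itpr2, the isoform of astrocytes, gave 179, 208 and 221 at P18, 141, 150.2 and 153 at P75, 197, 173 and 139 at 6 months and 144, 156 and 136 at 24 months and fell from P18 to P75 (-0.45, SE 0.13, limma adjusted p = 0.0143), a call that was lost with libraries scaled to the same total. Itpr3 gave 27.3, 29.4 and 29.1 at P18, 42.1, 73.2 and 54.2 at P75, 65, 74.6 and 74.9 at 6 months and 144, 108 and 131 at 24 months. All its P75 libraries were above the P18 libraries and all 24-month libraries above the 6-month libraries, with changes of 0.92, SE 0.19, limma adjusted p = 0.00117 and 0.82, SE 0.19, limma adjusted p = 0.00922.

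All 3 ryanodine receptor genes rose from P18 to P75, as did 25.9% of all genes tested. Ryr2, the cardiac and main brain form, led them per kb, at 198. It gave 1766, 2107 and 3115 at P18, 4403, 4159 and 3732 at P75, 4523, 3273 and 3903 at 6 months and 3891, 4218 and 4074 at 24 months and rose by 1.81-fold (0.85, SE 0.16, limma adjusted p = 0.000504). Ryr1, the skeletal muscle form, gave 152, 156 and 311 at P18, 443, 375 and 289 at P75, 485, 367 and 435 at 6 months and 449, 470.3 and 473 at 24 months, with P18 replicate 3 inside the P75 range (0.90, SE 0.22, limma adjusted p = 0.00344). Ryr3 gave 755, 869 and 1431 at P18, 1832, 1701 and 1499 at P75, 1293, 935 and 1243 at 6 months and 1460.2, 1454 and 1365 at 24 months, rose to P75 (0.77, SE 0.18, limma adjusted p = 0.00247) and fell to 6 months (-0.55, SE 0.18, limma adjusted p = 0.0162). Its exons overlap those of Aven. For all 3 genes P18 replicate 3 was the highest of the P18 libraries.

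**Figure D4:**
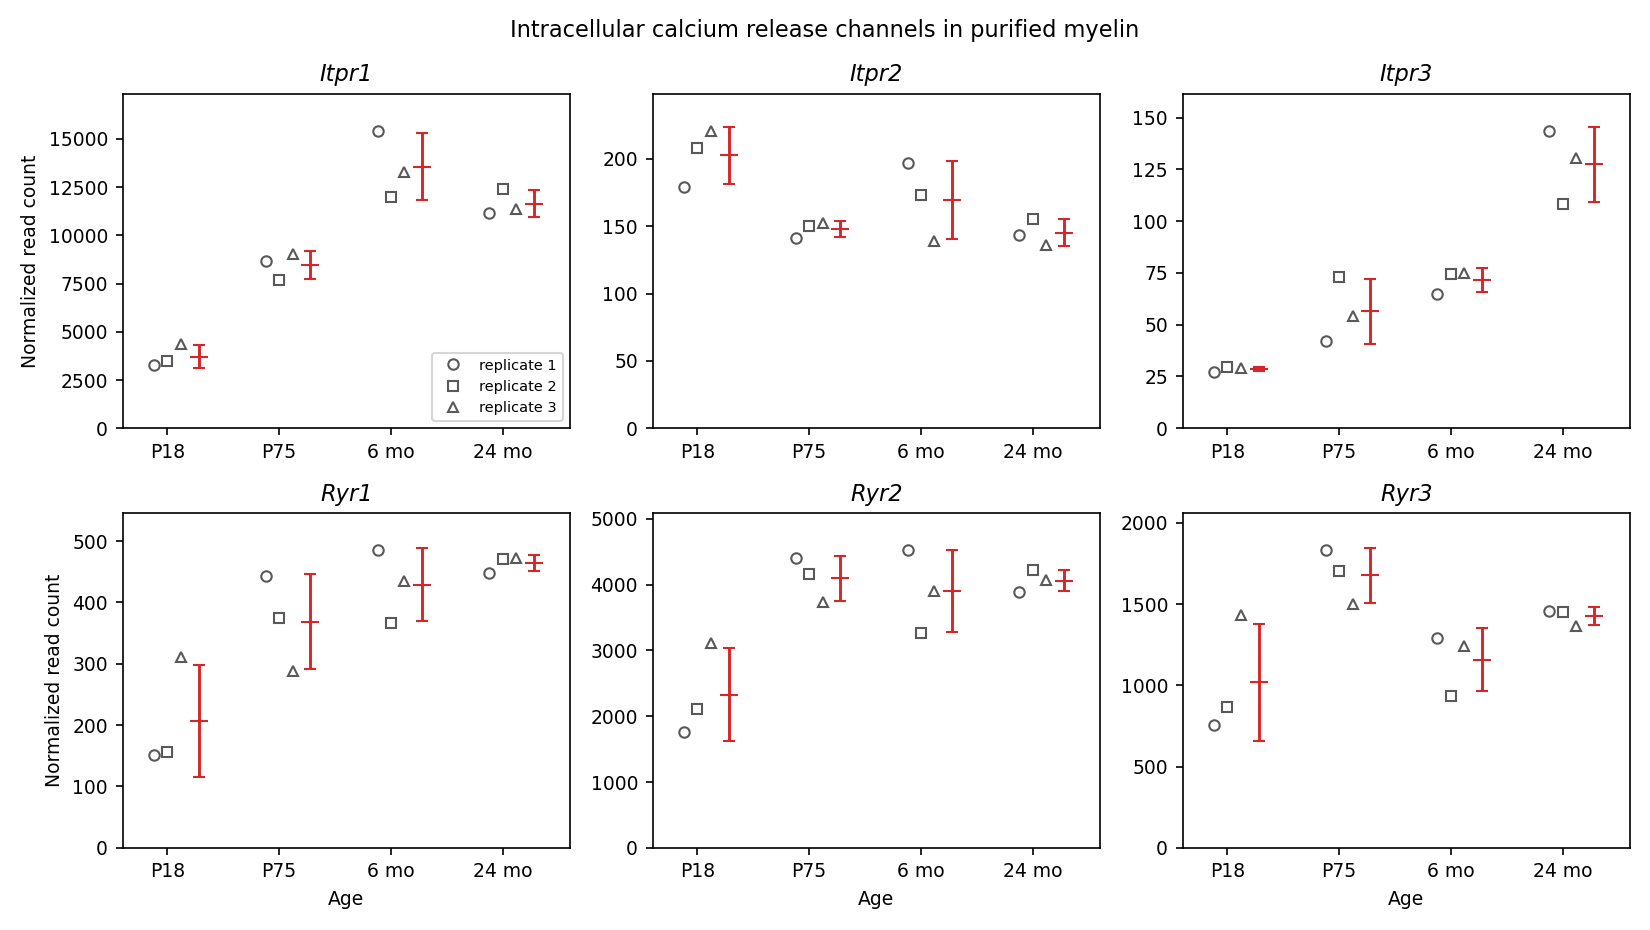
Normalized read counts of the inositol trisphosphate receptor and ryanodine receptor genes (vertical axes, from 0, scaled for each gene) at 4 ages (horizontal axes), with 1 grey symbol per library and the mean ± SD of 3 libraries in red. Itpr1 reaches 11959 to 15419 at 6 months, Itpr2 is highest at P18 on average, and the ryanodine receptors are lowest at P18 on average.

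Chloride channel and exchanger genes rose with few exceptions up to 6 months. Of the 7 tested, 5 rose from P18 to P75 and 6 from P75 to 6 months. Of all genes tested, 25.9% and 31.2% rose in these comparisons. Clcn4-2, which the table lists for the endosomal exchanger ClC-4, led the family per kb, at 899. Its values were 2646, 2662 and 2644 at P18, 3365, 3416 and 3895 at P75, 5154, 4506 and 4877 at 6 months and 5028, 5433 and 5777 at 24 months, and it rose by 0.42 and 0.45 (limma adjusted p = 0.0011 and 0.000448). Clcn3, another endosomal exchanger, gave 1611, 1634 and 1309.8 at P18, 1958, 1619 and 2085 at P75, 4394, 3709 and 4063 at 6 months and 3494, 3859 and 3921 at 24 months. Its 6-month libraries were all above the younger ones, and it rose by 2.16-fold (1.11, SE 0.11, limma adjusted p = 1.09e-06). The smaller rise of Clcn3 from P18 to P75, of 0.31, was lost without P18 replicate 3 or P75 replicate 3.

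Clcn6, a late endosomal exchanger of neurons (chromosome 4, 147378368 to 147412930, minus strand, mm9), gave 126, 137 and 144 at P18, 199, 153 and 109 at P75, 472, 405 and 389 at 6 months and 246, 293 and 304 at 24 months. It rose by 2.8-fold from P75 to 6 months (1.49, SE 0.17, limma adjusted p = 3.53e-06) and fell to 24 months (-0.59, SE 0.17, limma adjusted p = 0.0246), a fall that was lost without 6-month replicate 1. Clcn5, the endosomal exchanger of kidney, was low, at 21.4, 11.3 and 12.1 at P18, 17, 14.8 and 24.3 at P75, 46.3, 38.2 and 38.9 at 6 months and 28.7, 33.5 and 33.3 at 24 months, and rose from P75 to 6 months by 2.17-fold (1.12, SE 0.26, limma adjusted p = 0.00214). Clcn7, the lysosomal exchanger, gave 324, 353 and 413 at P18, 605, 657 and 555 at P75, 897, 893 and 901 at 6 months and 904, 904 and 994 at 24 months and rose by 0.74 and 0.57 (limma adjusted p = 2.84e-05 and 0.000161).

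Clcn2, the surface channel that binds GlialCAM, rose in every comparison. It gave 289.9, 296 and 422 at P18, 515, 560.0 and 535 at P75, 721, 682 and 741 at 6 months and 1055, 1017 and 987 at 24 months, without overlap between consecutive ages, and its log2 changes were 0.70, SE 0.12, limma adjusted p = 0.000226, then 0.41, SE 0.12, limma adjusted p = 0.00749, then 0.51, SE 0.12, limma adjusted p = 0.00844. Clcn1, the muscle channel, was low, at 21.4, 20.3 and 17.1 at P18, 54.1, 33.4 and 34.3 at P75, 23.6, 31.9 and 36 at 6 months and 76.3, 44.3 and 60.2 at 24 months, and rose from P18 to P75 (0.98, SE 0.25, limma adjusted p = 0.00526) and from 6 to 24 months (0.95, SE 0.25, limma adjusted p = 0.0173). Exons of Clcn2 overlap those of Fam131a and Polr2h, and exons of Clcn1 overlap those of Fam131b.

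The HCN genes Hcn2, Hcn3 and Hcn4 rose from P75 to 6 months, when 31.2% of all genes tested rose. Hcn2 (chromosome 10, 79179379 to 79198853, plus strand, mm9), the form also described in oligodendrocytes, led these 3 per kb, at 425. Its values were 699.9, 948 and 606 at P18, 1058, 847 and 853 at P75, 2343, 2231 and 1952 at 6 months and 1345, 1536 and 1866 at 24 months. The 6-month libraries were above all others, a rise of 2.37-fold (1.24, SE 0.15, limma adjusted p = 6.02e-06), and the gene fell to 24 months (-0.47, SE 0.15, limma adjusted p = 0.039).

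Hcn4, the pacemaker form of the heart, was the least abundant of the 3, at 10.7, 11.3 and 8.04 at P18, 13, 4.64 and 7.74 at P75, 41.4, 27.5 and 28.2 at 6 months and 10.9, 9.73 and 25.9 at 24 months. It rose by 3.71-fold (1.89, SE 0.39, limma adjusted p = 0.000737) and fell by 2.17-fold (-1.12, SE 0.39, limma adjusted p = 0.0538), on as few as 5 reads in a library. Hcn3 rose from P75 to 6 months by 0.74, and its exons overlap those of Pklr. The falls to 24 months depended on single libraries. That of Hcn2 was lost without 6-month replicate 1 or 2 or 24-month replicate 1 or 2, and that of Hcn4 without 6-month replicate 1 or 24-month replicate 1 or 2.

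The TRP genes were at low to moderate levels. All 6 Trpc members, 5 of 8 Trpm genes and 3 of 6 Trpv genes were tested. Trpc4 led these Trpc members per kb, at 80.2. Its values were 159, 193 and 254 at P18, 271, 296 and 286 at P75, 280.3, 269 and 257 at 6 months and 356, 371 and 348 at 24 months, and it rose from P18 to P75 (0.51, SE 0.13, limma adjusted p = 0.00567) and from 6 to 24 months (0.41, SE 0.13, limma adjusted p = 0.0402), in both cases without overlap. The later call was lost with libraries scaled to the same total and without 24-month replicate 2. Trpc6, a diacylglycerol-gated channel, showed the largest rise of any member from P18 to P75. It gave 51.1, 38.4 and 54.2 at P18, 94.2, 133 and 132 at P75, 130.0, 122 and 141 at 6 months and 207, 223 and 186 at 24 months. All P75 libraries were above the P18 libraries and all 24-month libraries above the others, with changes of 1.30, SE 0.16, limma adjusted p = 2e-05 and, from 6 to 24 months, 0.64, SE 0.16, limma adjusted p = 0.014.

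Trpc1 (chromosome 9, 95607046 to 95650777, minus strand, mm9), a subunit that joins other Trpc proteins, gave 76, 83.6 and 90.4 at P18, 121, 89.9 and 77.4 at P75, 368, 269 and 278 at 6 months and 164, 221 and 236 at 24 months. It rose by 3.17-fold from P75 to 6 months (1.67, SE 0.18, limma adjusted p = 2.21e-06) and fell to 24 months (-0.56, SE 0.18, limma adjusted p = 0.0387). That fall was lost without 24-month replicate 1 or 6-month replicate 1. Trpc7 rose by 0.40, fell by 0.28 and rose by 0.34 in the 3 comparisons. Its later 2 calls were lost with libraries scaled to the same total. The fall was also lost without P75 replicate 1 or 3 or 6-month replicate 2, and the later rise with quantile normalization and without 6-month replicate 1 or 2 or 24-month replicate 2 or 3. The share of Trpc1 in the summed per-kb level of the 6 Trpc members was 15.2% ± 3.78 at P75 and 36.4% ± 3.23 at 6 months (SD, n = 3, exact permutation test, two-sided p = 0.1).

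In the Trpm group, Trpm7, a channel fused to a kinase and involved in magnesium balance, led per kb, at 87.2. It gave 683, 635 and 873 at P18, 1264, 1146 and 1365 at P75, 855, 784 and 813 at 6 months and 1245, 1168 and 1005 at 24 months. P75 stood above both its neighbours without overlap, with a rise (0.79, SE 0.12, limma adjusted p = 6.34e-05), a fall (-0.62, SE 0.12, limma adjusted p = 0.000309) and a second rise (0.47, SE 0.12, limma adjusted p = 0.0111). Trpm3, a heat and pregnenolone sulfate sensor, moved in the opposite direction at each step. It gave 347, 322 and 286 at P18, 269.6, 238 and 232 at P75, 566, 486 and 447 at 6 months and 388, 412 and 357 at 24 months, with log2 changes of -0.37, SE 0.11, limma adjusted p = 0.0162, then 1.01, SE 0.11, limma adjusted p = 3.13e-06, then -0.37, SE 0.11, limma adjusted p = 0.0333. The fall of Trpm3 to P75 was lost with libraries scaled to the same total, and its fall to 24 months without 6-month replicate 1 or 24-month replicate 3. Trpm2, a channel known from microglia, rose by 0.59 and 0.44, and Trpm4 rose to P75 by 0.40. The call of Trpm4 was lost with quantile normalization and without P18 replicate 1 or 2.

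Trpv2 led the Trpv genes per kb, at 86.1. It gave 212, 202 and 228 at P18, 312, 351 and 342 at P75, 466, 433 and 463 at 6 months and 467, 514 and 645 at 24 months and rose by 0.64 and 0.44 (limma adjusted p = 0.000325 and 0.00398). Trpv4, an osmosensitive channel, rose from P75 to 6 months by 0.81, from 31.1, 22.2 and 30.9 to 52, 41.7 and 55.5. The heat-gated capsaicin receptor Trpv1 had at most 5.01 in a library and the cold receptor Trpm8 at most 8.34, and both were below the filter. Trpc4ap, the associated protein, gave 2643, 2638 and 2861 at P18, 2064, 2259 and 1835 at P75, 3134, 3115 and 2901 at 6 months and 2184, 2185 and 2505 at 24 months, with changes of -0.41, SE 0.09, limma adjusted p = 0.00193, then 0.58, SE 0.09, limma adjusted p = 6.86e-05, then -0.41, SE 0.09, limma adjusted p = 0.00643. Its exons overlap those of Myh7b.

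Among the members described above, 11 were called as rising to 6 months and as falling afterwards (18.3% of members tested, against 9.52% of all genes). They were Cacnb1, Cacng4, Cacng7, Cacng8, Trpc4ap and Trpm3, which were also called as falling from P18 to P75, and Cacna1e, Clcn6, Hcn2, Hcn4 and Trpc1, which were not called there. Consecutive comparisons share the libraries of the middle age, so a high 6-month value enters both, and the 2 calls do not count as separate evidence. The libraries themselves show that the 24-month values of Cacng8, Cacng7, Cacna1e, Clcn6, Hcn2, Trpc1 and Trpm3 stayed above all their P75 values. Those of Cacnb1, Cacng4, Hcn4 and Trpc4ap overlapped with P75.

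**Figure D5:**
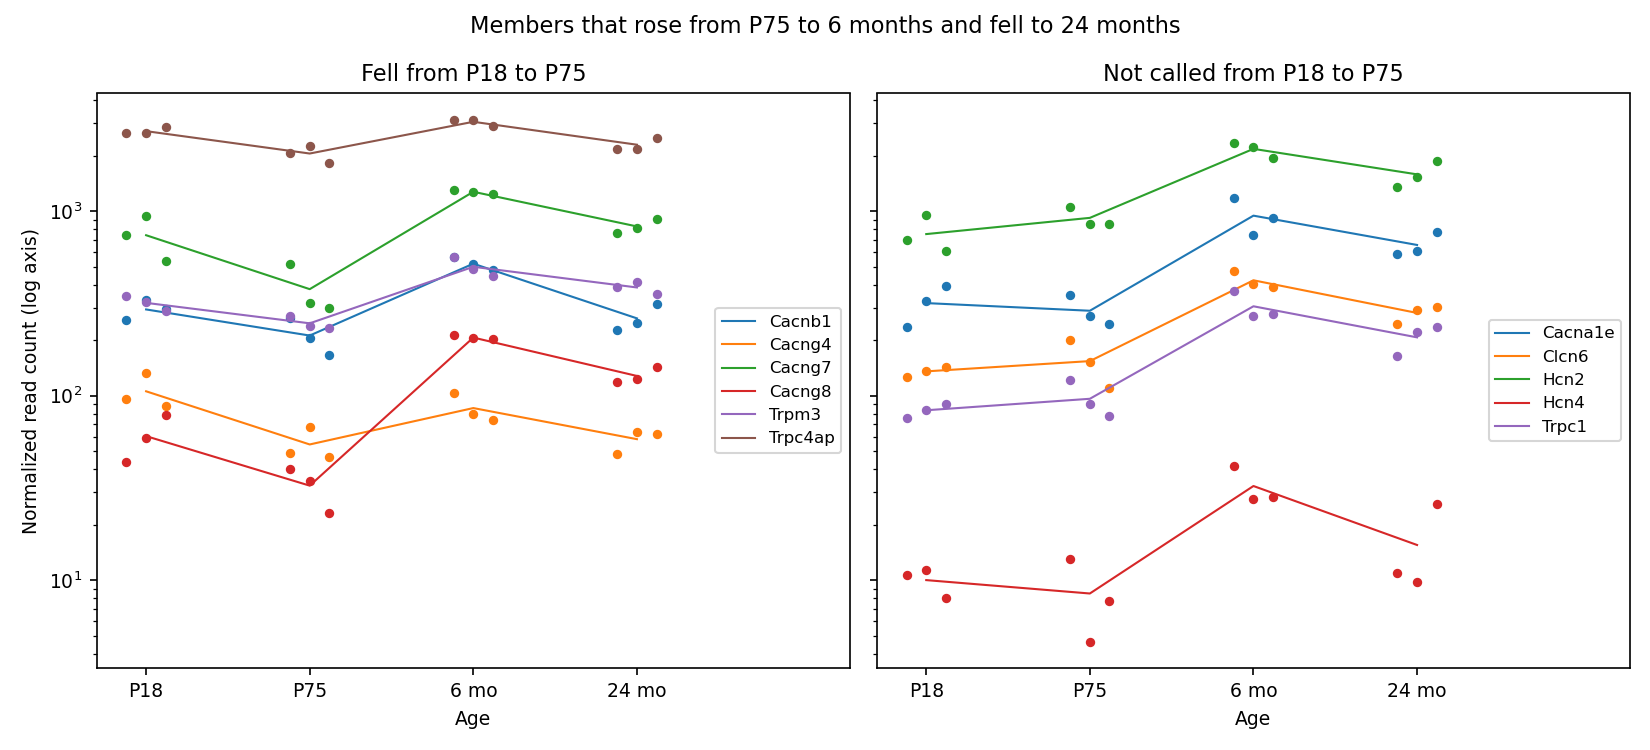
Normalized read counts (vertical axis, log scale) of the 11 members called as rising from P75 to 6 months and as falling to 24 months, with points for the 3 libraries at each age and lines through the means. The left panel holds the 6 genes that fell from P18 to P75 and the right panel the 5 that were not called there, and Cacng8 shows the steepest rise, with libraries between 23.2 and 40.1 at P75 and between 202 and 212 at 6 months.

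Genes that work with these channels were followed as a list of 60 partners and related channels, of which 52 were tested. From P18 to P75, 22 rose (42.3%, against 25.9% of all genes) and 11 fell (21.2%, against 22.9%). From P75 to 6 months, 27 rose (51.9%, against 31.2%) and 4 fell (7.69%, against 29.4%). From 6 to 24 months, 7 rose (13.5%, against 16.6%) and 9 fell (17.3%, against 12.7%), both near the shares of all genes. Their median log2 changes were 0.20, 0.28 and -0.02. Hepacam, which encodes GlialCAM, the partner of Clcn2, gave 1759.8, 2023 and 1892 at P18, 1549, 1535 and 1274 at P75, 2060.3, 2128 and 1955 at 6 months and 1691, 1883 and 1796 at 24 months. It fell from P18 to P75 (-0.38, SE 0.09, limma adjusted p = 0.00302) and rose from P75 to 6 months (0.50, SE 0.09, limma adjusted p = 0.000252), and Mlc1, a membrane protein of the same complex in astrocytes, rose in both, by 0.49 and 0.40.

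Ostm1, the beta subunit of the lysosomal exchanger Clcn7, gave 360.1, 433 and 343 at P18, 409, 354 and 444 at P75, 1405, 1190.3 and 1395 at 6 months and 1149, 1369.9 and 1373 at 24 months. The 6 older libraries were all above the 6 younger ones, and the gene rose by 3.3-fold from P75 to 6 months (1.72, SE 0.12, limma adjusted p = 4.01e-08). The store-operated calcium entry genes rose in the same interval. Stim1, a calcium sensor of the endoplasmic reticulum, gave 410.0, 473 and 454 at P18, 413, 384 and 323 at P75, 1046, 994 and 870.0 at 6 months and 676, 698 and 788 at 24 months and rose by 2.6-fold (1.38, SE 0.11, limma adjusted p = 1.48e-07). Stim1 was also called as falling before this rise, from P18 to P75 (-0.26, SE 0.11, limma adjusted p = 0.0653), with overlapping libraries. It fell again from 6 to 24 months (-0.43, SE 0.11, limma adjusted p = 0.0137). Stim2 rose from P18 to P75 (0.76) and from P75 to 6 months (0.55). The pore genes Orai1, Orai2 and Orai3 rose to 6 months by 0.87, 0.22 and 0.87, and were called in no other comparison. Exons of Orai1 overlap those of Kdm2b.

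The largest partner rises from P75 to 6 months were those of Ano3, a member of the anoctamin family, Fgf11, a fibroblast growth factor homologous factor, and Lrrc8b, a subunit of volume-regulated anion channels. Ano3 gave 20.2, 37.3 and 39.2 at P18, 57.1, 33.4 and 29.9 at P75, 437, 269.8 and 295 at 6 months and 114, 148 and 181 at 24 months and rose by 8.29-fold (3.05, SE 0.28, limma adjusted p = 5.27e-07), though its exons overlap those of Muc15. Fgf11 and Lrrc8b rose by 2.14 and 2.03. Fgf11 was low, at 15, 10.2 and 3.32 at P75, with as few as 3 reads in a library. Ano3, Fgf11 and Lrrc8b fell to 24 months, by 1.16, 1.18 and 1.02 on the log2 scale. From P18 to P75 the largest called rises were Ano1 (1.31), a calcium-activated chloride channel, Pex5l (1.26), which encodes the HCN partner TRIP8b, and Ano2 (1.13). Ano1 and Ano2 were low, with as few as 10 and 19 reads in a library. Pex5l went from 2138, 2246 and 1915 to 6061, 4704 and 4429.7, while the largest called falls were those of Fkbp1a (log2 change -0.67), whose product binds ryanodine receptors, Clic5 (-0.65) and Fgf13 (-0.63). Fgf11 had a log2 change of -0.76 there, which was not called.

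From P75 to 6 months, Fkbp1b, another ryanodine receptor partner, fell by 0.67, Pkd1 by 0.65 and Accn1, the older symbol of the acid-sensing channel Asic2, by 0.38. Exons of Pkd1 overlap those of Tsc2. From 6 to 24 months the largest called rises were Tpcn2 (0.94), a lysosomal two-pore channel, Stac3 (0.72) and Clic5 (0.62). Stac3 was low, between 23.97 and 40.87 at 6 months and between 36.65 and 62.02 at 24 months. Without 6-month replicate 2, 4 partners rose from 6 to 24 months.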

How the data were processed

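RNA of purified myelin was sequenced in 12 libraries, 3 at each of P18, P75, 6 months and 24 months, and groups and replicate numbers follow the labels. The authors aligned reads to mm9 (TopHat2 2.0.8, SAMtools 0.1.19 and HTSeq 0.5.4p1 in the submitters' processing notes), counted them per gene with HTSeq and divided each library by its size factor from DESeq. This normalized read count is the deposited signal, given for 21937 genes. The annotation and strand setting of the counting are not given in the sources used here, and overlapping or near-identical genes may have lost or shared reads. All values were whole multiples of the value of 1 read (tolerance 0.1 reads), which gave 20299052 to 27214385 reads on genes per library.

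Ages were compared with limma 3.58.1 (R 4.3.3, with an intensity trend and moderated variances) after adding 1 to each normalized read count and taking log2, in 1 fit of all 12 libraries with age as the only term, over 14634 genes whose mean was 10 or more. Benjamini-Hochberg adjustment covered all genes tested, and genes were called at an adjusted p below 0.1. Fold changes are on that log2 scale and understate changes of low genes. The p-values of limma set the difference between 2 age means against the spread of libraries within ages, pooled over all 4 ages and moderated. Family shares were compared with exact two-sided permutation tests, whose smallest p is 0.1. Levels per kb used merged exons of GENCODE vM1 on NCBIM37, where all 72 symbols were found. Promoters came from RefSeq (GRCm38.p6). Alternatives, including edgeR 4.0.16 and DESeq2 1.42.0 on recovered reads, are given in the closing section. The steps were tested on simulated counts. Python 3.11.15 with pandas 2.3.3, numpy 2.4.6 and matplotlib 3.10.9 was used.

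Members, lists and tests were chosen with earlier results of these data known. Named in full were in each comparison the 10 called members that rose most and the 10 that fell most, the leading member per kb of each family, members whose direction differed between consecutive comparisons, the 3 partners that rose most and the 3 that fell most, and 8 listed partners. Other members were added by family after their values were seen. Of the partners, 4 were found under an older symbol. Some genes with matching symbols are not reported here and are in no count of members. Same-numbered libraries come from different mice. The deviations from the group means of same-numbered P75 and 6-month libraries correlated at 0.161, 0.101 and 0.187, and what this reflects was not tested. A fit with the replicate number as a block over all 12 libraries was run as an alternative. In that block fit, 33 members rose and 5 fell from P75 to 6 months.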

Additional observations from a re-analysis of the deposited data

How the results depend on the processing

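No named change reversed under any alternative. The 105 named changes gave 1763 results, each for 1 change under 1 alternative. Of these results, 1677 had the same direction and side of the threshold and 86 lost the call. The same call was kept throughout by 81 changes. Requiring a 2-fold change lowered the members that rose and fell to 3 and 0 from P18 to P75, 11 and 0 from P75 to 6 months, and 0 and 1 from 6 to 24 months, and the partners to 4 and 0, 7 and 0, and 0 and 3. With libraries scaled to the same total, 7 partners fell from P18 to P75 and 7 members rose from 6 to 24 months. With only the 2 ages in the fit, 8 members fell from P75 to 6 months and 12 partners rose from 6 to 24 months. In that last comparison 12 partners also rose in edgeR, 4 with a mean over 100 required and 4 at an adjusted p under 0.05. Leaving out 1 library gave 6 to 13 members that rose and 4 to 12 that fell from 6 to 24 months, and 4 to 6 partners that rose. The cause of these shifts was not tested.

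In the fit with the replicate number as a block, counts were 31 and 7 members from P18 to P75, 33 and 5 from P75 to 6 months, where the call of Cacna1h was lost, and 14 and 11 from 6 to 24 months, and no other member's call changed. The deviations of same-numbered libraries correlated at -0.0264, -0.151 and -0.136 between P18 and P75 and at -0.213, -0.0696 and -0.0603 between 6 and 24 months. They come from different mice and are not pairs.

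Groups of 3 libraries limit what can be called. Members near the filter, such as Hcn4, rest on few reads, and levels in other cells, tissues or unpurified brain were not analysed here.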

Other observations

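The 12 members below the filter were low in every library. Of these, Scn10a, a sensory neuron channel, had the most reads, 96 in all libraries together, and its values were 5.94, 4.52 and 11.1 at P18 and 19.8, 15.1 and 10.2 at 24 months. Cacng6 was at 0 in replicates 1 and 2 at P18 and at 6.5, 6.21 and 5.84 at 6 months, when its neighbours Cacng7 and Cacng8 were also highest. Scn4a, the skeletal muscle sodium channel, had 2 reads in 1 library, and Trpm5, the taste cell channel, had 8 reads in 5 libraries. Without the filter on low values, 11 of the 12 could be fitted among 18834 genes. Cacng6 was then called as rising from P75 to 6 months (log2 change 2.18, SE 0.48, limma adjusted p = 0.00206) and Scn10a from 6 to 24 months (1.46, SE 0.36, limma adjusted p = 0.0177), each with libraries that did not overlap. The other 9 had no call at any step. Cacng6 rests on at most 8 reads in a library and Scn10a on at most 20.

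Across the 60 tested members, the log2 change from P75 to 6 months went with shorter transcripts (Spearman's rho -0.36 with length), whereas across all 14153 tested genes with a known length rho was 0.32. For the change from 6 to 24 months rho with length was 0.23 for the members and -0.32 for all genes, and from P18 to P75 it was 0.33 and 0.07. For members, Pearson's r of the change with GC content was -0.25 in the first comparison, 0.31 in the middle one and -0.26 in the last. The values of all genes were -0.17, 0.04 and -0.05. The 6 members called as falling, rising and falling again had a median GC content of 56.2% (48.15% to 59.75%). Scn9a, Trpc7 and Trpm7, called in the opposite directions, had 42.4% (40.12% to 51.75%), so the ranges overlapped. The part of GC content in these courses was not tested. All points share the same 12 libraries and genes are not independent replicates, so these values are descriptions.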
